A study of Mus musculus with 15 samples.

Results

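Kidney transcripts of mice given D-alanine were compared with those of mice given vehicle, in 10 of the 15 libraries of the series. Both groups came from wild-type (WT) animals, with 5 libraries labelled D-ala and 5 labelled Vehicle, all at 2 h, and the treatment label alone decided which libraries entered. The remaining 5 libraries, labelled L-ala, helped to estimate the spread of each gene and are quoted for a few genes. The sources used here do not give dose, route, make-up of the vehicle, sex or age, and the labels do not say that each library came from a separate animal, so p-values measure the spread between these libraries. Values are FPKM (fragments per kilobase of transcript and scaled to library depth), given as mean ± SD over 5 libraries or library by library in the order of replicates 1 to 5. Fold changes are differences of log2(FPKM + 1) with their standard error (SE), and a gene was called higher or lower when limma's Benjamini-Hochberg adjusted p was under 0.05.

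D-alanine is the mirror image of the L-alanine used in proteins. Mammalian tissues meet it in food and as a product of gut bacteria, and the kidney clears it: the peroxisomes of the proximal tubule hold D-amino acid oxidase, encoded by Dao, which converts it to pyruvate, ammonia and hydrogen peroxide. Short exposures of a tissue to a stimulus are first seen in immediate early genes, which need no newly made protein to be transcribed and whose messages decay fast.

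By the markers of proximal tubule, lymphocytes and adrenal cortex the libraries looked like kidney. Adipocyte markers summed to 325 to 732 FPKM under vehicle and 329 to 849 under D-ala. Cyp3a11 and Uox, picked after their values were seen and too low to test, were 2.07 and 1.08 FPKM in D-ala replicate 1. In the other compared libraries they reached at most 0.055 and 0.057. Whether other tissue was admixed was not tested. Summed FPKM of 11 proximal tubule markers ran from 88715 to 107931 under vehicle and from 80751 to 108170 under D-ala, whereas none of 10 lymphocyte markers and none of 7 adrenal cortex markers reached the level needed for testing. Depth, estimated from the rounding of the deposited scaled counts, was 7580000 to 10180000 reads per vehicle library and 9970000 to 10460000 per D-ala library, rounded. By that estimate vehicle replicate 1 was the shallowest. On gene-centred values the mean correlation of a library with its own group was 0.117 to 0.288 for vehicle and 0.071 to 0.182 for D-ala, with vehicle replicates 3 and 5 the lowest of their group. L-ala replicate 5 was at -0.118; without it the comparison called 1592 genes rather than 1349. Rank correlations of gene-centred expression with GC content, across genes, ran from -0.247 to -0.0025 in the vehicle libraries and from -0.037 to 0.237 in the D-ala libraries. With that trend removed from each library, 706 genes were higher and 558 lower.

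Of 11781 genes tested, 769 were higher under D-ala (6.53%) and 580 lower (4.92%), 11.5% in all. Counts of called list members given below are to be read against these shares. Most of these changes were small: the median change was 0.37 among the higher genes and -0.34 among the lower ones, against 0.00 over all genes tested. Large changes were mostly rises. A rise of 2-fold or more was called for 77 genes and a fall of that size for 8. The split also followed expression level. Among 1674 genes with a mean of 50 to 500 FPKM, 158 were higher and 30 lower, and among 161 genes above 500 FPKM 15 were higher and 0 lower. Below 5 FPKM the order was the reverse, with 131 higher and 205 lower of 3733. Of the called genes, 550 of those higher and 382 of those lower showed no overlap between the 2 groups' libraries. Over all genes tested, 6.12% had all 5 D-ala libraries above all 5 controls and 4.76% had all 5 below. Leaving out vehicle replicate 4 reduced the calls to 502 higher and 310 lower, and leaving out D-ala replicate 1 reduced the lower ones to 364. The balance depended on scaling: quantile normalization gave 740 higher and 836 lower (46.9% of calls higher, against 57.0%), and limma's voom on the scaled counts 524 and 1216 (30.1%), with the median gene at -0.06. Of the 1349 calls, 668 passed under all 20 alternative settings, 428 of them higher and 240 lower, and genes named below as called passed in every one that tested them unless stated otherwise.

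The 8 genes with the smallest p-values, picked after their values were seen, all rose, and in each the D-ala libraries lay well clear of vehicle. Slc16a6, which codes for a carrier of monocarboxylates and ketone bodies (GRCm38 chromosome 11, 109450855 to 109473598), stood at 2.97, 1.90, 2.78, 1.72 and 2.49 FPKM in the vehicle libraries and at 15.6, 14.5, 15.8, 18.1 and 13.4 under D-ala. The lowest D-ala library was thus far above the highest vehicle library, and the log2 fold change was 2.30 (SE 0.11, adjusted p = 5.56e-09). Wsb1, which codes for a substrate-binding part of a ubiquitin ligase (chromosome 11, 79239372 to 79254671), was 27.0, 22.96, 32.1, 23.7 and 25.3 FPKM under vehicle and 103, 96.5, 111, 95.6 and 91.9 under D-ala (1.89, SE 0.10, adjusted p = 6.85e-09). Neither group of Wsb1 values spread by more than a small part of the gap between them. Efna1, which codes for a membrane-anchored ligand of Eph receptors (chromosome 3, 89271733 to 89281142), was 36.4, 32.4, 29.8, 32.3 and 28.2 FPKM under vehicle and 108, 118, 107, 150 and 118 under D-ala (1.88, SE 0.11, adjusted p = 2.98e-08). D-ala replicate 4 was the highest Efna1 library, and the other 4 lay close together.

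H3f3b, which codes for the replication-independent histone H3.3 (chromosome 11, 116021912 to 116027962), increased from 109 ± 9.88 to 297 ± 38.7 FPKM (1.43, SE 0.09, adjusted p = 2.98e-08). Tob1, which codes for an antiproliferative protein that recruits the deadenylation machinery to messages (chromosome 11, 94211454 to 94215495), increased from 56.0 ± 8.89 to 187 ± 18.5 FPKM (1.73, SE 0.11, adjusted p = 8.16e-08). Topors, which codes for a ligase of ubiquitin and SUMO that binds topoisomerase I (chromosome 4, 40259601 to 40269850), increased from 12.3 ± 1.14 to 26.8 ± 1.51 FPKM (1.07, SE 0.08, adjusted p = 2.45e-07). All 5 D-ala libraries of these 3 genes were above all 5 vehicle libraries. Slc20a1, which codes for a sodium-phosphate cotransporter (chromosome 2, 129198764 to 129211616), was 11.6, 17.8, 19.7, 10.4 and 12.4 FPKM under vehicle and 56.8, 70.1, 60.6, 80.3 and 79.3 under D-ala (2.22, SE 0.16, adjusted p = 1.06e-06). Adm2, which codes for a vasoactive peptide related to adrenomedullin (chromosome 15, 89322720 to 89324731), was 2.59, 1.48, 1.53, 2.00 and 2.04 FPKM under vehicle and 7.95, 12.7, 7.84, 7.87 and 8.90 under D-ala (1.77, SE 0.14, adjusted p = 1.54e-06). D-ala replicate 2 was the high library for Adm2, and the other 4 differed by little.

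The L-ala level set beside these genes differed from gene to gene. It averaged 2.84 FPKM for Slc16a6, 33.9 for Wsb1, 25.1 for Efna1 and 22.7 for Slc20a1, and D-ala was above L-ala by 2.10, 1.54, 2.22 and 1.57 on the log2 scale (limma adjusted p = 1.12e-08, 1.18e-07, 8.54e-09 and 5.80e-05). Since the D-ala libraries enter both comparisons, these differences are no independent support for those against vehicle.

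**Figure D1:**
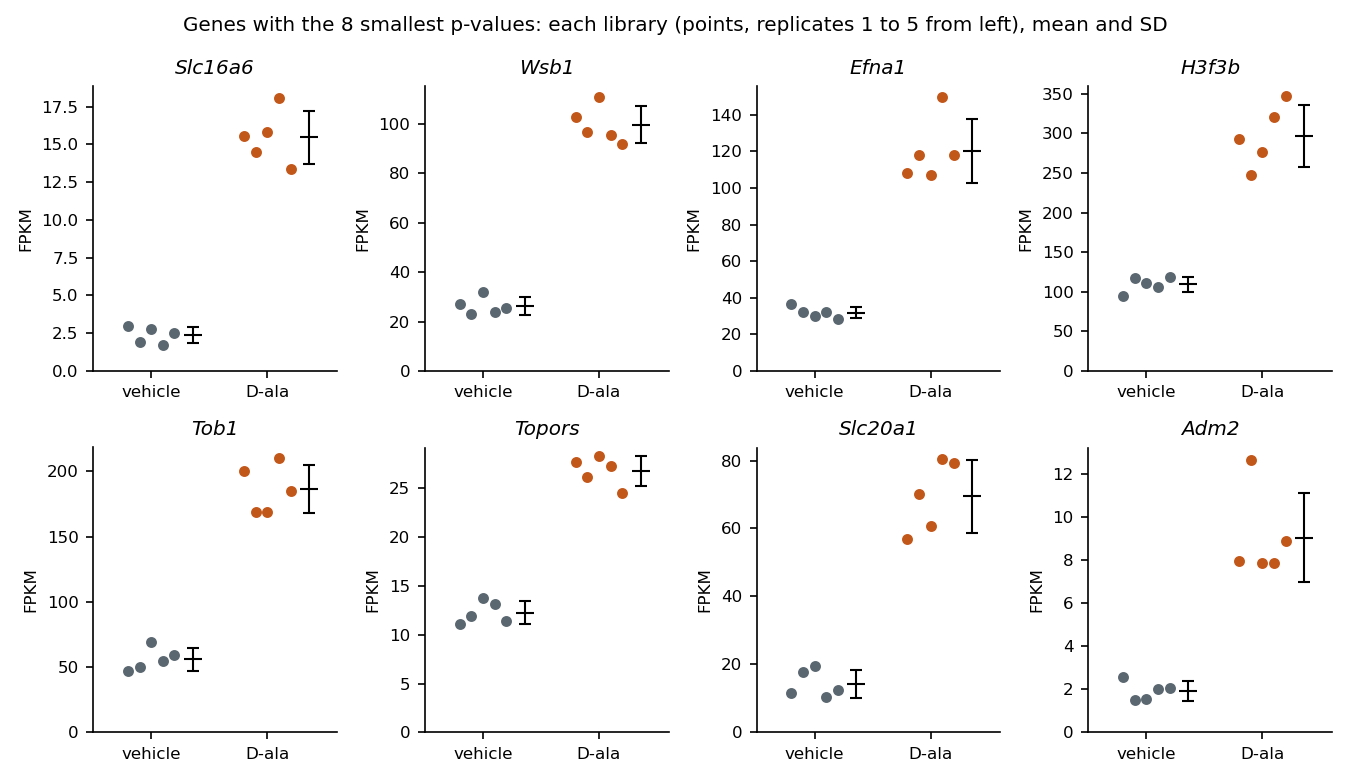
FPKM (vertical axes, starting at 0) of the 8 genes with the smallest p-values in each vehicle and D-ala library, with the mean and SD of the 5 libraries beside the points. In every panel the lowest D-ala library lies above the highest vehicle library, and for Slc16a6 the gap runs from 2.97 to 13.4 FPKM.

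The largest rises by size were mostly other genes, several of them with more variable controls. By fold change among genes with no overlap between the groups, the 15 largest included Plk3, Cxcl1, Btg2, Gadd45g, Nr4a1, Rcan1, Slc25a25, Gdf15, Cyp27b1, Dusp1, Slc16a6, Slc20a1, Junb and Cyr61. Plk3, which codes for a stress-responsive polo-like kinase, was 2.57, 5.83, 47.5, 4.37 and 15.05 FPKM under vehicle and 241, 296, 148, 161 and 174 under D-ala (4.30, SE 0.61, adjusted p = 0.00104). All 5 D-ala libraries were above all 5 controls, but vehicle replicates 3 and 5 were well above the other 3. Slc25a25, which codes for an ATP-magnesium/phosphate carrier of the inner mitochondrial membrane, also had vehicle replicates 3 and 5 as its highest controls: 50.002, 22.7, 147, 48.2 and 113 FPKM under vehicle and 386, 383, 325, 364 and 336 under D-ala (2.51, SE 0.39, adjusted p = 0.00164). Vehicle replicate 3 held the highest vehicle value of 46 of the 77 genes that rose 2-fold or more (59.7%), against 17.3% of all genes tested. Vehicle replicate 1 held the lowest vehicle value of 36 of them (46.8%, against 21.8%). The lowest D-ala value of those genes was in replicate 3 for 29 (37.7%, against 15.2%) and in replicate 4 for 23 (29.9%, against 24%). D-ala replicate 2 held the highest D-ala value of 28 (36.4%, against 24.5%). Vehicle replicate 3 was 10180000 reads deep, the deepest of its group. What sets these libraries apart was not tested.

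**Figure D2:**
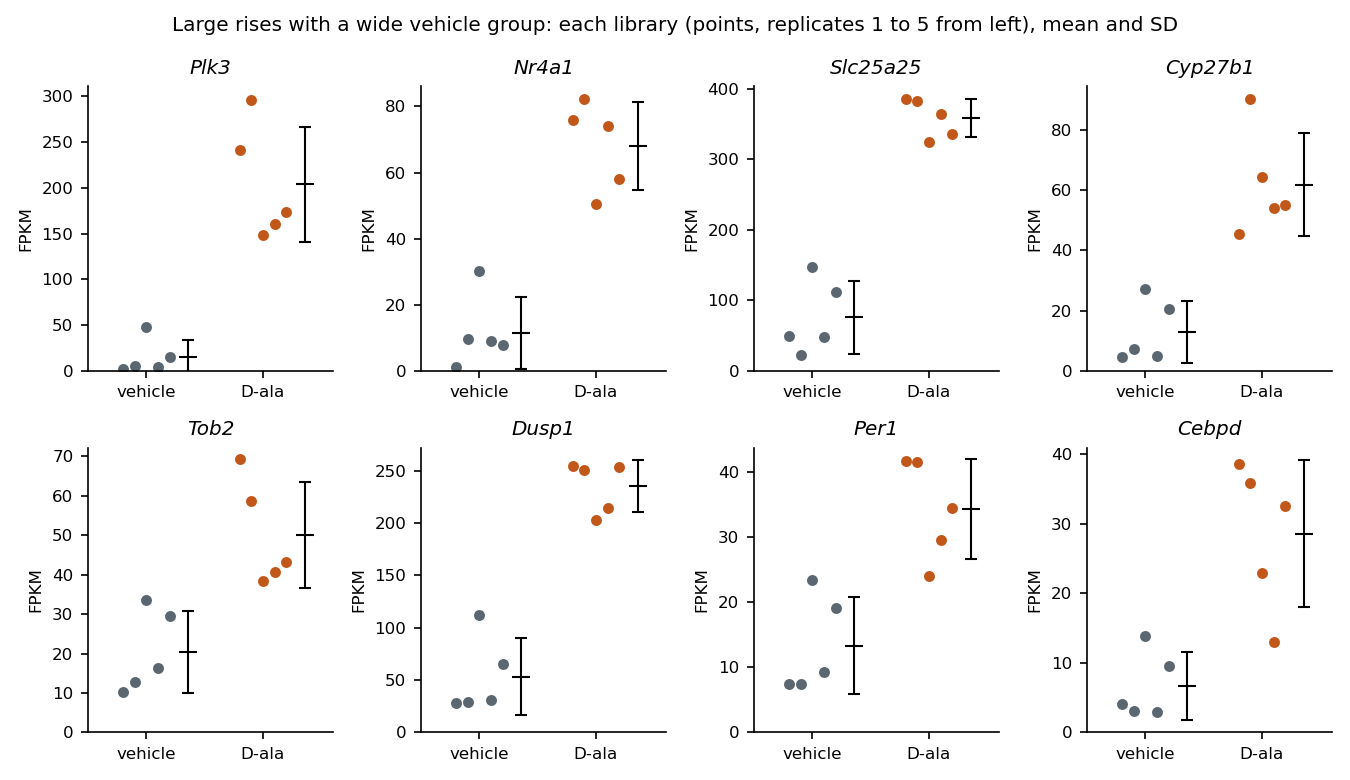
FPKM (vertical axes, starting at 0) of 8 genes that rose under D-ala and whose vehicle libraries vary, one point per library in the order of replicates 1 to 5, with mean and SD. Vehicle replicate 3 is the highest control in all 8 panels and stays under every D-ala library except in Cebpd, where it stands at 13.9 FPKM against 13.04 in D-ala replicate 4.

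Gdf15, which codes for a stress cytokine that acts on hindbrain receptors, was tight under vehicle at 7.02, 6.54, 8.90, 6.43 and 7.69 FPKM and spread under D-ala at 34.6, 99.0, 27.8, 53.5 and 37.5 (2.49, SE 0.30, adjusted p = 2.07e-04). Its spread thus lay within the treated group, with replicate 2 the highest. Cxcl1, which codes for a chemokine that draws neutrophils, was 0.325, 2.45, 0.990, 1.07 and 1.49 FPKM under vehicle and 16.8, 45.4, 2.83, 16.6 and 42.7 under D-ala (3.13, SE 0.57, adjusted p = 0.00453). D-ala replicate 3 came close to the vehicle libraries, and with voom the adjusted p of Cxcl1 was 0.0739. No other of 17 tested subunits, inhibitors and targets of NF-kB passed, but 2 members did without vehicle replicate 2 or without D-ala replicate 1 or 3, and also with a pseudocount of 0.1, a filter of 5 FPKM, quantile normalization or no trend.

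Immediate early transcription factors were the list with the largest share of calls: 13 of 17 tested members rose and 0 fell, with a median of 1.51, and 10 of the 13 passed under every alternative. Junb, which codes for an AP-1 subunit, was 11.6, 25.7, 24.2, 15.4 and 16.8 FPKM under vehicle and 81.9, 112, 55.6, 89.6 and 92.9 under D-ala (2.17, SE 0.23, adjusted p = 6.49e-05). Its partner Jun increased from 17.2 ± 3.31 to 61.05 ± 12.7 FPKM (1.76, SE 0.21, adjusted p = 1.26e-04), and Jund, the family member with the highest vehicle level, from 49.1 ± 12.6 to 86.7 ± 5.83 (0.84, SE 0.14, adjusted p = 0.00170). Fos, the classical AP-1 partner, stayed low, at 0.192, 4.30, 5.11, 2.19 and 2.13 FPKM under vehicle and 12.4, 10.5, 7.54, 13.7 and 14.2 under D-ala (1.91, SE 0.45, adjusted p = 0.0174). It did not pass with voom. Nr4a1, which codes for an orphan nuclear receptor, rose from 11.6 ± 10.9 to 68.1 ± 13.3 FPKM (2.88, SE 0.50, adjusted p = 0.00353). Atf3 rose by 1.67 (SE 0.43, adjusted p = 0.0257) but did not pass without vehicle replicate 4 or 5 or without D-ala replicate 2, 4 or 5. Egr1, from 7.58 ± 5.64 to 19.9 ± 6.61 FPKM, did not pass (1.51, SE 0.48, adjusted p = 0.0587); vehicle replicate 1 held 1.01 FPKM and replicate 2 16.4, and it passed without vehicle replicate 2 (1.84) or D-ala replicate 3 (1.76), or without the mean-variance trend.

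Regulators of message decay moved in both directions. Of 12 tested, 4 rose and 2 fell. Btg2, which codes for an antiproliferative protein that stimulates deadenylation, was 6.25, 13.01, 16.6, 9.10 and 13.4 FPKM under vehicle and 110, 129, 54.4, 99.9 and 83.3 under D-ala (2.94, SE 0.25, adjusted p = 9.45e-06). Its relatives Tob1 and Tob2 also rose, Tob2 at 10.3, 12.7, 33.5, 16.2 and 29.5 FPKM under vehicle and 69.3, 58.6, 38.3, 40.6 and 43.2 under D-ala (1.35, SE 0.28, adjusted p = 0.00832). Btg1, of the same family, fell from 13.1 ± 1.25 to 8.96 ± 0.668 FPKM (-0.50, SE 0.08, adjusted p = 0.00110), with no overlap between the groups. Zfp36, which codes for a protein that binds AU-rich elements and marks messages for decay, rose from 34.2 ± 14.1 to 115 ± 27.2 FPKM (1.77, SE 0.25, adjusted p = 6.12e-04), whereas Zfp36l1 did not pass (0.47, SE 0.16, adjusted p = 0.0782) except without vehicle replicate 2 (0.56) or D-ala replicate 2 (0.57).

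Inhibitors of MAP kinase signalling rose in 6 of 15 tested members and fell in 2, of which 5 and 1 passed under every alternative; with a filter of 5 FPKM 3 were higher and 1 lower. Dusp1, which codes for a nuclear phosphatase of p38 and JNK, was 27.8, 29.2, 112, 30.5 and 65.7 FPKM under vehicle and 255, 250, 203, 214 and 254 under D-ala (2.35, SE 0.33, adjusted p = 7.16e-04). Dusp5, a phosphatase of ERK in the nucleus, increased from 0.756 ± 0.284 to 4.27 ± 1.76 FPKM (1.54, SE 0.19, adjusted p = 8.83e-05), and Dusp4 from 3.88 ± 0.944 to 9.55 ± 2.90 (1.09, SE 0.17, adjusted p = 6.83e-04). Within the EGF receptor family Hbegf, a ligand shed from the membrane, rose from 9.42 ± 2.34 to 35.4 ± 9.47 FPKM (1.80, SE 0.21, adjusted p = 9.56e-05). Errfi1, an inhibitor of the receptor's kinase, rose from 193 ± 55.1 to 408 ± 41.8 FPKM (1.11, SE 0.15, adjusted p = 2.59e-04). Adam17, the protease that sheds the ligands, fell from 7.12 ± 0.148 to 5.77 ± 0.505 FPKM (-0.26, SE 0.06, adjusted p = 0.0105). Of the 12 tested members of that list 2 rose and 3 fell, and without vehicle replicate 2 or 4 or without D-ala replicate 1 or 2, only 1 fell.

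Of 19 p53 and DNA damage genes, 6 rose (31.6%) and 1 fell (5.26%), against 6.53% and 4.92% of all genes tested. The number higher was 3 without vehicle replicate 1 or without D-ala replicate 4. Gadd45g, which codes for an activator of stress kinases, was 25.7, 21.0, 80.7, 15.1 and 102 FPKM under vehicle and 408, 461, 177, 110 and 501 under D-ala (2.91, SE 0.57, adjusted p = 0.00672), so that D-ala replicate 4 lay just above vehicle replicate 5. Pmaip1, which codes for the pro-apoptotic protein Noxa, rose from 5.94 ± 1.75 to 17.9 ± 3.46 FPKM (1.47, SE 0.18, adjusted p = 1.31e-04). The best known p53 target, Cdkn1a, did not pass (0.55, SE 0.27, adjusted p = 0.206). Of 7 tested genes of the Myc network 2 rose (28.6%) and 1 fell (14.3%), the fall being lost in 5 of the 10 fits with 1 library left out. Myc was 2.92, 3.10, 1.47, 2.17 and 1.29 FPKM under vehicle and 4.12, 9.55, 6.5, 9.62 and 10.5 under D-ala (1.49, SE 0.27, adjusted p = 0.00352), and Mnt, which competes with Myc for its partner Max, rose from 5.58 ± 0.908 to 10.5 ± 1.63 (0.80, SE 0.11, adjusted p = 2.07e-04).

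Early targets of BMP, Notch and TGF-beta formed a group with 6 higher and 1 lower of 14 tested, a median of 0.33, and 6 higher under every alternative. Id1, Id2 and Id3, which code for inhibitors of helix-loop-helix factors, rose by 1.02 (SE 0.23, adjusted p = 0.0114), 0.65 (SE 0.13, adjusted p = 0.00485) and 0.93 (SE 0.17, adjusted p = 0.00311). Id2 reached 334 ± 64.2 FPKM under D-ala, and its D-ala replicate 2, at 238, lay under vehicle replicates 2 and 4. Smad7, an inhibitor of the TGF-beta receptor, was 5.04, 5.48, 4.46, 4.68 and 3.66 FPKM under vehicle and 8.60, 9.06, 8.27, 9.04 and 10.03 under D-ala (0.83, SE 0.10, adjusted p = 8.22e-05). Skil, a corepressor that holds Smad complexes inactive, rose from 4.18 ± 0.667 to 9.20 ± 0.959 FPKM (0.98, SE 0.10, adjusted p = 2.08e-05). Neither Smad7 nor Skil showed an overlap between the groups.

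Promoters of the genes that rose were searched for binding motifs. In RefSeq windows of 300 bases (GRCm38.p6, 250 before to 50 after each start), matched by symbol for 9369 of the tested genes, the full palindrome TGACGTCA, the element bound by CREB and ATF proteins, lay in 10 of 84 windows of 61 genes that rose 2-fold or more (11.9%), in 4.48% of windows of all genes that rose, in 2.93% of windows of all genes tested in 1.08% of windows of genes that fell and in 1.90% of windows of those that fell by 0.5 or more on the log2 scale. The 2-fold genes with it were Arl4d, Btg2, Dusp1, Epha2, Errfi1, Maff, Rcan1, Slc25a25, Topors and Wsb1. The AP-1 site TGANTCA, read on both strands with N as any base, was in 3.57% of the windows of the 2-fold genes and 5.09% of windows of tested genes, and in 10.5% for the falls of 0.5 or more. Over all windows of the promoter set, tested or not, it was in 7.81%. Median GC content was 61.83% in windows of the 2-fold genes, 60.67% for tested genes, 54.33% for those falls and 52.67% over all windows. The part of GC content in these shares was not tested. The E-box CACGTG, the site of clock and Myc factors, was in 16.7% of windows of the 2-fold genes and 10.1% of windows of tested genes. For the falls of 0.5 or more it was in 4.76%. In the same order the TATA box TATAAA, read on both strands, was in 15.5%, 7.40% and 11.4%. The CArG box, the site of SRF, was in 2.38%, 1.23% and 0%, and the ATF4 composite site TGATGNAA, on both strands, in 2.38%, 2.13% and 5.71%. These shares are descriptions without a test, and a match is not a bound site. A gene with several starts gives several windows, some of which overlap.

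The stretches around the palindrome are shown for 6 of those genes, chosen after the search because their values are given here. Each runs 5′ to 3′ on the gene's strand with up to 40 bases on either side and ends before the start site, and the capitals mark the palindrome. It begins 166 bases before the start in Btg2, 143 in Dusp1, 51 in Errfi1, 38 in Wsb1, 52 in Topors and 150 in Slc25a25. Among several RefSeq starts, only the second has it in Errfi1, only the first in Wsb1 and only the third in Slc25a25.
Btg2, GRCm38.p6 chr1:134079274-134079361, minus strand: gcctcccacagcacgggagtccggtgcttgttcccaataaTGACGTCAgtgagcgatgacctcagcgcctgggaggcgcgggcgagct
Dusp1, chr17:26508568-26508655, minus strand: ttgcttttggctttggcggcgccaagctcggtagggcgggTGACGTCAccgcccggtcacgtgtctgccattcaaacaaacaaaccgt
Errfi1, chr4:150854979-150855066, plus strand: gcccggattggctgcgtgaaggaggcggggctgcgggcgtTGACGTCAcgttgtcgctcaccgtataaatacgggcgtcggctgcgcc
Wsb1, chr11:79254696-79254773, minus strand: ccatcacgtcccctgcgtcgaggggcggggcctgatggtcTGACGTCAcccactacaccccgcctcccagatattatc
Topors, chr4:40269846-40269933, minus strand: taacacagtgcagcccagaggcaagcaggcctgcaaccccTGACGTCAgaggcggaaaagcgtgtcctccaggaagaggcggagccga
Slc25a25, chr2:32424169-32424256, minus strand: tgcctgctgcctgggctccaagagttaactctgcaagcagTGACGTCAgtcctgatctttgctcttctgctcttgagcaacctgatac

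Of 18 tested genes of cAMP signalling 4 were higher (22.2%) and 1 lower (5.56%), with a median of 0.03. Over all genes tested the shares were 6.53% and 4.92%. Sik1, a kinase that CREB induces and that restrains CREB's coactivators, was 13.5, 17.5, 32.4, 14.4 and 20.2 FPKM under vehicle and 89.1, 84.7, 69.3, 75.9 and 92.1 under D-ala (2.08, SE 0.21, adjusted p = 2.98e-05). The D-ala libraries were close to each other and all above vehicle replicate 3, the highest control. Rgs2, a brake on G protein signalling, rose by 0.50 (SE 0.12, adjusted p = 0.0129), Pde4c, a cAMP phosphodiesterase, by 0.28 (SE 0.06, adjusted p = 0.00999) and Ppargc1a by 0.25 (SE 0.06, adjusted p = 0.0149). Creb1 fell by 0.36 on the log2 scale (SE 0.08, adjusted p = 0.00964).

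Clock genes moved in both directions, 4 of 21 tested higher and 3 lower, with a median of 0.00. The repressor Bhlhe40 was 44.2, 57.8, 46.2, 44.7 and 30.1 FPKM under vehicle and 117, 116, 135, 178 and 131 under D-ala, with a wide gap between the groups (1.59, SE 0.15, adjusted p = 9.45e-06). Nfil3, a repressor of output genes, was 12.9, 13.1, 14.002, 4.69 and 13.3 FPKM under D-ala against 2.48 to 4.21 under vehicle (1.45, SE 0.22, adjusted p = 7.60e-04). D-ala replicate 4 was low for Nfil3 and high for Bhlhe40. Per1 was 7.36, 7.44, 23.4, 9.31 and 19.1 FPKM under vehicle and 41.7, 41.5, 24.02, 29.5 and 34.4 under D-ala (1.42, SE 0.28, adjusted p = 0.00611), the lowest D-ala library only just above vehicle replicate 3. Gm129, the older symbol of Ciart, a repressor of the CLOCK-BMAL1 pair, rose by 1.30 (SE 0.29, adjusted p = 0.0114). Nr1d2, a nuclear receptor of the stabilizing loop, fell from 35.3 ± 3.14 to 26.2 ± 1.45 (-0.41, SE 0.06, adjusted p = 8.00e-04). Per2 (0.32, SE 0.12, adjusted p = 0.0962), Nr1d1 (0.11, SE 0.16, adjusted p = 0.701) and Dbp (-0.30, SE 0.10, adjusted p = 0.0663) did not pass, and Arntl was too low to test. Dbp passed without vehicle replicate 1 (-0.35) or D-ala replicate 5 (-0.38), in the fit to the 10 libraries alone (adjusted p = 0.0409), and with quantile normalization, voom or GC trends removed. The number of clock genes lower was 5 with quantile normalization, with GC trends removed or in the fit to 10 libraries, and 6 with voom.

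Glucocorticoid-induced genes rose in 6 of 20 tested and fell in 1. The metallothioneins, which bind zinc, rose: Mt1 was 390, 373, 373, 358 and 506 FPKM under vehicle and 603, 948, 532, 504 and 563 under D-ala (0.63, SE 0.14, adjusted p = 0.00984), with vehicle replicate 5 just above D-ala replicate 4, and Mt2 rose by 0.91 (SE 0.18, adjusted p = 0.00454). Cebpb and Cebpd, which code for leucine zipper factors, rose by 1.93 (SE 0.42, adjusted p = 0.0114) and 2.07 (SE 0.43, adjusted p = 0.00959). Fkbp5 (0.19, SE 0.17, adjusted p = 0.509) and Tsc22d3 (0.59, SE 0.26, adjusted p = 0.170) did not pass. In the vehicle group Tsc22d3 was 32.98, 26.3, 67.5, 32.6 and 72.8 FPKM, again with replicates 3 and 5 on top.

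The amino acid response driven by ATF4 showed a partial rise, 6 of 19 tested and 0 lower, all 6 under every alternative. Atf4 itself was 61.7, 83.2, 103, 88.1 and 77.9 FPKM under vehicle and 160, 200, 155, 147 and 136 under D-ala (0.95, SE 0.12, adjusted p = 8.83e-05), with no overlap. Ddit3, which codes for the stress factor CHOP, rose by 1.04, from 32.4 ± 8.19 to 67.4 ± 15.4 FPKM (SE 0.18, adjusted p = 0.00251), and so did Ppp1r15a, which restores translation by dephosphorylating eIF2-alpha, from 13.9 ± 2.82 to 25.7 ± 0.980 (0.86, SE 0.11, adjusted p = 1.26e-04). The usual marker of amino acid shortage, Asns, was 2.35 ± 0.367 FPKM under vehicle and 2.09 ± 0.450 under D-ala and did not pass (-0.12, SE 0.10, adjusted p = 0.480). Chac1 did not pass either (0.69, SE 0.32, adjusted p = 0.187), and Trib3 was too low to test. Slc38a2, a neutral amino acid carrier that ATF4 is known to raise, fell: it was 16.1, 18.5, 18.5, 26.1 and 16.1 FPKM under vehicle and 9.30, 11.9, 12.2, 9.83 and 9.54 under D-ala (-0.78, SE 0.11, adjusted p = 2.51e-04), all D-ala libraries below all controls. Of 34 aminoacyl-tRNA synthetases 8 rose and 0 fell, of which 3 (Aars, Eprs and Sars) passed under every alternative and 3 to 7 with 1 library left out. Aars rose from 22.7 ± 1.28 to 28.8 ± 1.79 FPKM (0.33, SE 0.05, adjusted p = 0.00109). Of 21 chaperones of the unfolded protein response 2 rose and 0 fell, and 0 passed under every alternative.

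Genes for handling RNA and chromatin rose in part. Of 27 tested splicing factors 8 rose and 0 fell, 6 of them under every alternative. Cirbp, which codes for a cold-inducible RNA-binding protein, was 41.3, 24.9, 25.3, 30.004 and 36.8 FPKM under vehicle and 81.4, 77.2, 63.6, 57.3 and 67.4 under D-ala (1.12, SE 0.14, adjusted p = 1.89e-04), without overlap, while the other cold-inducible member, Rbm3, did not pass (0.13, SE 0.10, adjusted p = 0.413). Srsf5, a serine-arginine splicing factor, was 40.5, 33.9, 42.01, 39.5 and 43.5 FPKM under vehicle and 68.4, 67.5, 68.3, 65.7 and 75.8 under D-ala (0.78, SE 0.12, adjusted p = 8.83e-04). Both groups of Srsf5 values were narrow and far apart. Outside the lists, and chosen after their values were seen, Mat2a, which makes the methyl donor S-adenosylmethionine, rose by 1.20 (SE 0.12, adjusted p = 1.10e-05), and Neat1, the long noncoding RNA that builds paraspeckles, from 179 ± 32.3 to 477 ± 134 FPKM (1.38, SE 0.17, adjusted p = 1.73e-04). Histone genes, 22 tested, rose in 6 cases and fell in 1, a fall that was lost in 7 of the 10 fits with 1 library left out and with GC trends removed. The linker histone Hist1h1c increased from 109 ± 23.4 to 272 ± 59.8 FPKM (1.31, SE 0.14, adjusted p = 3.53e-05) and H1f0 from 112 ± 4.90 to 154 ± 11.2 (0.44, SE 0.06, adjusted p = 2.16e-04). Libraries of this kind select polyadenylated messages, so replication histones, most of which lack a tail, are seen only in part.

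**Figure D3:**
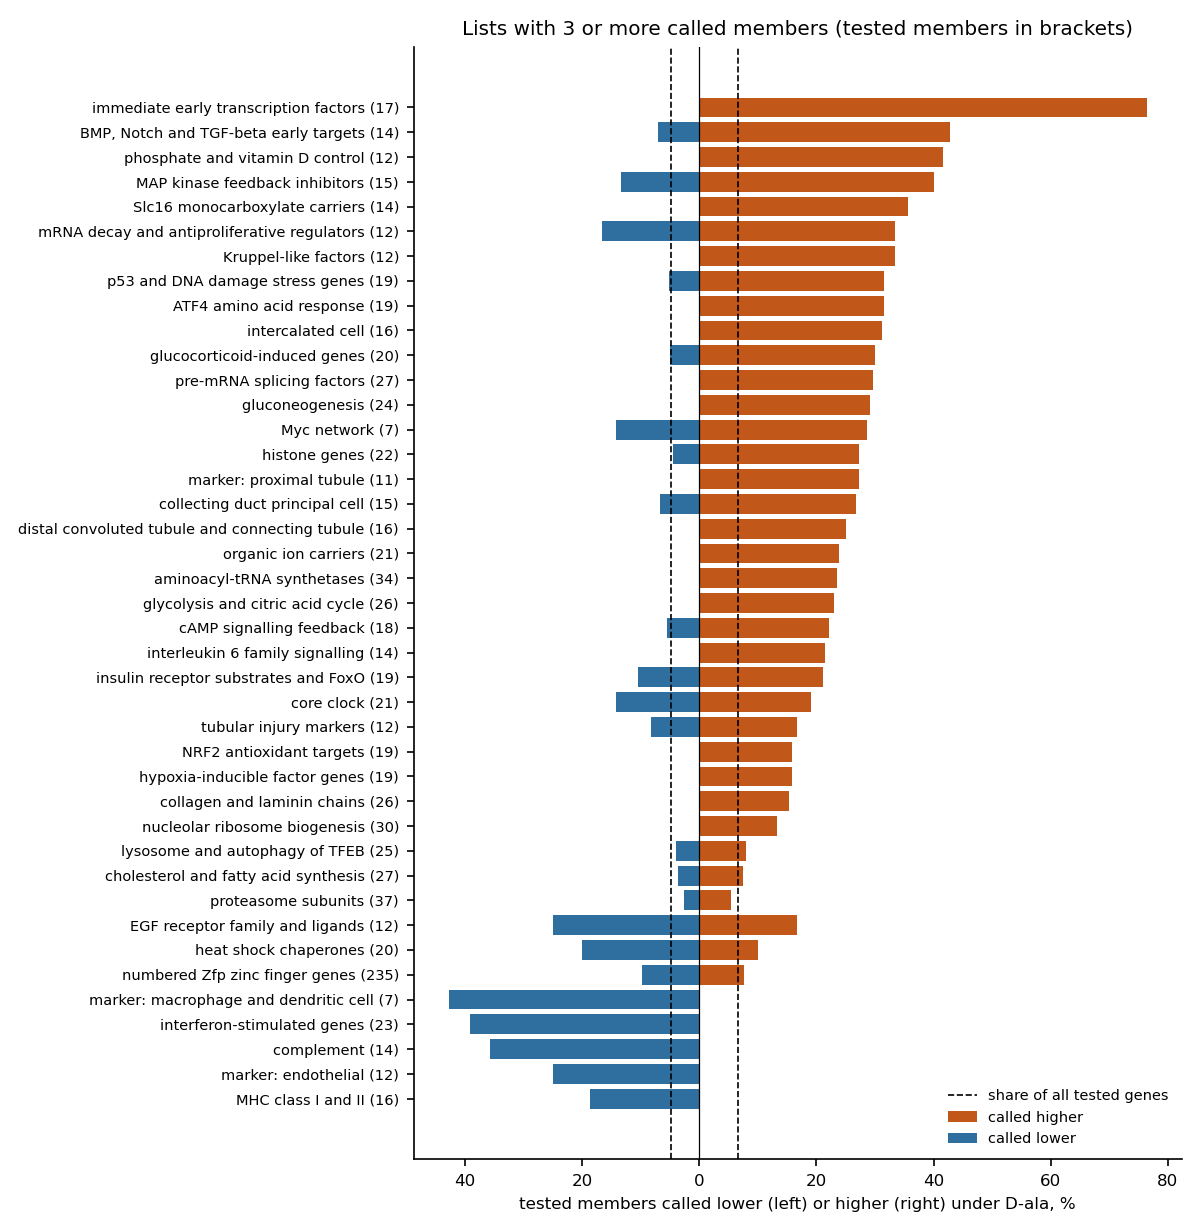
Share of the tested members of each gene list that were called higher (right) or lower (left) under D-ala, in percent, for lists with 3 or more calls, with tested members in brackets and the shares over all genes tested (6.53% higher, 4.92% lower) as dashed lines. Immediate early factors reach the largest share higher, 13 of 17, and macrophage, interferon, complement, endothelial and MHC lists hold calls only on the lower side.

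Along the nephron, genes of phosphate and vitamin D control held some of the largest changes. Of 12 tested, 5 rose and 0 fell (median 0.19), 3 of them, Slc20a1, Cyp27b1 and Vdr, under every alternative; 7 of the 10 fits with 1 library left out gave 3. Cyp27b1, which makes the active form of vitamin D, was 4.68, 7.24, 27.2, 5.01 and 20.4 FPKM under vehicle and 45.4, 90.1, 64.4, 54.0 and 55.0 under D-ala (2.46, SE 0.56, adjusted p = 0.0151). Vdr, the receptor of that hormone, was 62.9, 54.8, 61.8, 54.1 and 57.4 FPKM under vehicle and 106, 113, 83.6, 86.0 and 84.1 under D-ala (0.68, SE 0.11, adjusted p = 0.00130). Vdr was even across the controls, and Cyp27b1 was not. Cyp24a1, the enzyme that inactivates vitamin D, did not pass (0.68, SE 0.56, adjusted p = 0.487): D-ala replicate 3 held 2.57 FPKM and the other 4 between 14.97 and 17.5. The main brush border phosphate carrier, Slc34a1, with means of 1525 ± 103 FPKM (vehicle) and 1747 ± 111 FPKM (D-ala), passed under 7 of the alternatives (0.20, SE 0.06, adjusted p = 0.0447), and klotho (Kl) under 10 (0.22, SE 0.06, adjusted p = 0.0357).

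Among other carriers, few of the apical ones of the proximal tubule passed, and more of the organic ion and Slc16 carriers did. Of 21 tested apical carriers 2 rose (9.52%, against 6.53% of all genes tested) and 0 fell, with 0 under every alternative. Of 16 genes of protein endocytosis 0 passed by limma (2 at an unadjusted p under 0.05, and 1 passed without D-ala replicate 4). Of the basolateral organic ion carriers Slc22a6 (OAT1) rose from 271 ± 13.9 to 359 ± 30.8 FPKM (0.40, SE 0.06, adjusted p = 8.19e-04), without overlap, and Slc22a2 (OCT2) from 187 ± 8.73 to 232 ± 10.3 (0.30, SE 0.06, adjusted p = 0.00362). They belong to a list of 21 in which 5 rose (23.8%) and 0 fell, 2 to 5 with 1 library left out. Slc16a1 (MCT1), which moves lactate and pyruvate, increased from 5.79 ± 0.825 to 9.67 ± 1.86 FPKM (0.65, SE 0.11, adjusted p = 0.00142), and it and Slc16a6 were the members of the Slc16 list, 5 of 14 higher, that passed under every alternative. Among exchangers of amino acids Slc3a2, the heavy chain shared by several of them, increased from 102 ± 22.6 to 161 ± 20.6 FPKM (0.67, SE 0.12, adjusted p = 0.00244), and its partner Slc7a8 (LAT2) by 0.43 (SE 0.10, adjusted p = 0.00976). The glutamine carrier Slc38a3 rose by 0.45 (SE 0.11, adjusted p = 0.0120).

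In the distal nephron, 4 of 16 tested genes of the distal convoluted and connecting tubule rose (25%) and 0 fell (1 to 4 higher with 1 library left out). Of 15 of the collecting duct principal cell 4 rose (26.7%) and 1 fell (6.67%), or 2 and 2 with voom. Over all genes tested the shares were 6.53% and 4.92%. Slc12a3, the thiazide-sensitive sodium chloride cotransporter, was 154, 138, 127, 123 and 113 FPKM under vehicle and 209, 211, 158, 176 and 167 under D-ala (0.49, SE 0.10, adjusted p = 0.00581), with the lowest D-ala library just above the highest control. Of the 3 subunits of the epithelial sodium channel, Scnn1g rose by 0.38 (SE 0.09, adjusted p = 0.0147) and Scnn1b by 0.30 (SE 0.07, adjusted p = 0.0135, not passed with voom), while Scnn1a did not pass (0.04, SE 0.07, adjusted p = 0.780). Aqp2, the vasopressin-regulated water channel, was 241, 268, 308, 303 and 329 FPKM under vehicle and 202, 209, 247, 213 and 200 under D-ala (-0.43, SE 0.09, adjusted p = 0.00691). D-ala replicate 3 lay just above vehicle replicate 1, and the other libraries did not overlap. In intercalated cells Slc4a9, a bicarbonate cotransporter, rose by 0.49 (SE 0.08, adjusted p = 0.00124), Slc26a4 (pendrin) by 0.27 (SE 0.06, adjusted p = 0.0130) and Car12, a carbonic anhydrase, by 0.30 (SE 0.06, adjusted p = 0.00404), in a list with 5 of 16 higher and 0 lower, and 3 higher without vehicle replicate 4 or without D-ala replicate 4. In the thick ascending limb 1 of 14 tested genes rose (7.14%, against 6.53% of all genes tested), under every alternative, and 0 fell. Neither Umod (-0.24, SE 0.12, adjusted p = 0.230) nor Slc12a1 (-0.27, SE 0.17, adjusted p = 0.337) passed there. Ren1, which codes for renin, was 27.5, 27.98, 32.9, 22.1 and 37.2 FPKM under vehicle and 39.02, 60.6, 69.4, 50.7 and 38.7 under D-ala (0.77, SE 0.20, adjusted p = 0.0257). The groups did not overlap, yet without vehicle replicate 1, 2 or 4 or without D-ala replicate 2 or 3, its adjusted p was 0.0501 to 0.0702.

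**Figure D4:**
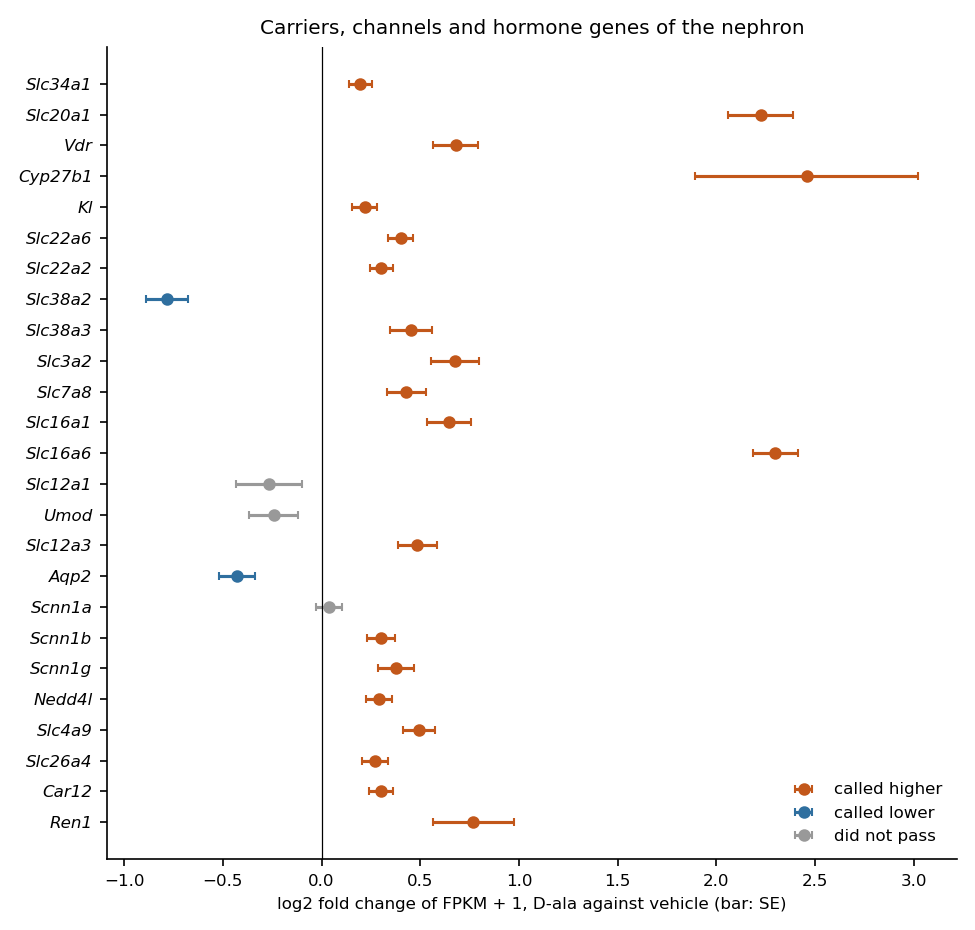
Log2 fold change of FPKM + 1 under D-ala against vehicle (points) with SE (bars) for carriers, channels and hormone genes ordered from phosphate and vitamin D control through the tubule segments to renin. Slc20a1, Cyp27b1 and Slc16a6 stand above 2, most others that passed lie between 0.20 and 0.80, and Slc38a2 and Aqp2 fall below 0.

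Among the enzymes named in this paragraph the largest change was 0.82 on the log2 scale, in Pck1. Larger rises of other enzymes, Mat2a and Cyp27b1, are given above. Dao, the enzyme of D-alanine breakdown, was 229, 248, 228, 194 and 243 FPKM under vehicle and 282, 236, 244, 266 and 276 under D-ala and did not pass (0.19, SE 0.07, adjusted p = 0.0982). The groups overlapped through D-ala replicates 2 and 3. Gpt, which exchanges alanine and pyruvate, was 18.3, 21.5, 20.2, 19.02 and 22.05 FPKM under vehicle and 36.2, 25.8, 28.2, 34.8 and 24.2 under D-ala (0.53, SE 0.13, adjusted p = 0.0134). Genes of glucose production rose in 7 of 24 tested members and fell in 0, with 5 under every alternative. Pck1, the committed step from oxaloacetate, increased from 2437 ± 749 to 4136 ± 553 FPKM (0.82, SE 0.18, adjusted p = 0.00989), and G6pc, which releases free glucose, from 266 ± 51.7 to 458 ± 122 (0.77, SE 0.18, adjusted p = 0.0142). Fbp1 did not pass (0.18, SE 0.06, adjusted p = 0.0804), except in the fit to the 10 vehicle and D-ala libraries (adjusted p = 0.0352). Slc25a10, the mitochondrial dicarboxylate carrier, rose by 0.32 (SE 0.07, adjusted p = 0.00924), and Miox, the tubular enzyme that opens inositol, from 2209 ± 168 to 2976 ± 349 FPKM (0.42, SE 0.08, adjusted p = 0.00212).

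Several large families of housekeeping genes held 0 calls by limma. Of 82 respiratory chain and ATP synthase genes (median 0.04) 6 had an unadjusted p under 0.05, of 70 cytosolic ribosomal proteins (median -0.01) 4, and of 72 mitochondrial ribosomal proteins (median 0.03) 3, against 3126 of all 11781 genes tested. With quantile normalization 2, 7 and 2 of their members were called lower. Of 25 genes of fatty acid oxidation 1 rose at the adjusted threshold, and of 27 enzymes of amino acid breakdown 2, in both lists with 0 under every alternative. Of 19 tested NRF2 targets, which answer oxidants, 3 rose (15.8%, against 6.53% of all genes tested), and only Tkt passed under every alternative (0.24, SE 0.06, adjusted p = 0.0157). Hmox1 (0.38, SE 0.16, adjusted p = 0.145, but passed at 0.51 without vehicle replicate 2) and Nqo1 (0.29, SE 0.14, adjusted p = 0.189) did not pass. Of 12 tested tubular injury markers 2 rose (16.7%) and 1 fell (8.33%), against 6.53% and 4.92% of all genes tested. Under every alternative 0 were higher and 1 was lower. Lcn2 did not pass (-0.31, SE 0.20, adjusted p = 0.344), and Havcr1 was too low to test.

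Among the genes that fell, those with the largest changes were of low to moderate level. The 15 largest falls among genes with no overlap included Ifitm1, Lypd2, Cxcl14, Psca, Fzd1, Ctss, Lyz2, Lepr, Tnn, Tfap4, Ccdc117, Plvap, Serping1 and Lmo2. Plvap, an endothelial diaphragm protein (-0.84, SE 0.22, adjusted p = 0.0411), did not pass when any of vehicle replicates 1, 3, 4 and 5 or D-ala replicates 1, 2 and 3 was left out. Lyz2, which codes for the lysozyme of macrophages, was 17.0, 13.5, 13.1, 14.8 and 14.3 FPKM under vehicle and 5.88, 8.47, 7.09, 7.53 and 7.46 under D-ala (-0.91, SE 0.10, adjusted p = 2.66e-05). Psca, which codes for a surface antigen of epithelia, was 21.6, 21.1, 25.9, 29.2 and 28.1 FPKM under vehicle and 14.5, 12.4, 11.3, 14.8 and 10.3 under D-ala (-0.94, SE 0.12, adjusted p = 1.15e-04). In both genes all 5 D-ala libraries were below all 5 controls. Ifitm1, which codes for an interferon-induced membrane protein, was 13.1, 9.18, 14.3, 14.3 and 12.7 FPKM under vehicle and 1.25, 3.55, 4.48, 7.84 and 3.38 under D-ala (-1.54, SE 0.27, adjusted p = 0.00236). Lypd2, of the same Ly6 family of surface proteins as Psca, was 10.6, 10.4, 11.6, 10.9 and 10.98 FPKM under vehicle and 2.76, 2.27, 3.85, 7.95 and 2.95 under D-ala (-1.36, SE 0.29, adjusted p = 0.00914). D-ala replicate 4 was the closest to vehicle for both Ifitm1 and Lypd2. Ccdc117 fell from 14.1 ± 2.65 to 7.34 ± 0.553 FPKM (-0.84, SE 0.10, adjusted p = 8.32e-05), and Mier1, a chromatin corepressor with the smallest p among the falls, picked after its value was seen, from 10.9 ± 0.754 to 6.37 ± 0.595 (-0.70, SE 0.07, adjusted p = 9.45e-06).

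**Figure D5:**
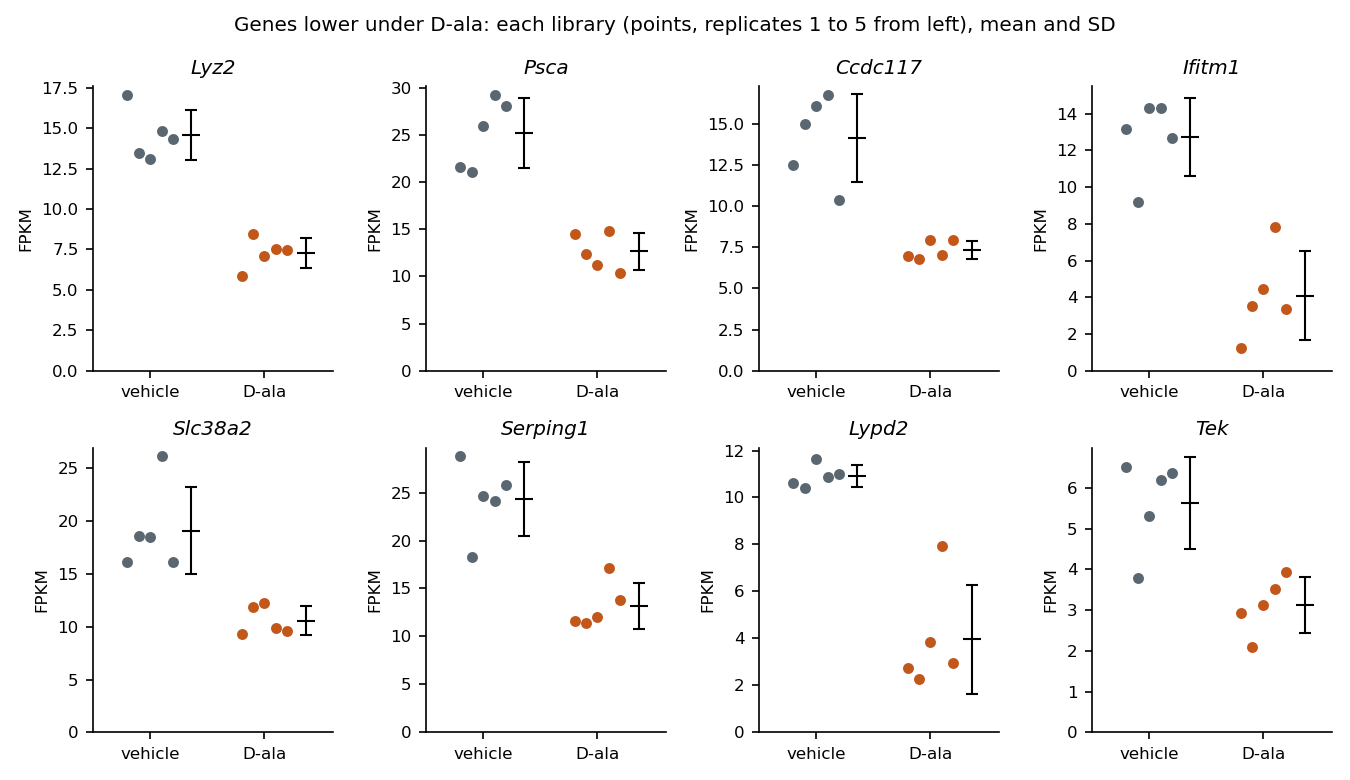
FPKM (vertical axes, starting at 0) of 8 genes lower under D-ala in each vehicle and D-ala library, in the order of replicates 1 to 5, with mean and SD of the 5 libraries. Lyz2, Psca and Ccdc117 separate cleanly, while D-ala replicate 4 is the highest treated library for Ifitm1, Lypd2 and Serping1.

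Interferon-stimulated genes fell in 9 of 23 tested members and rose in 0, with a median of -0.33; 4 fell under every alternative, and 4 were lower without vehicle replicate 1, 4 or 5 or without D-ala replicate 1, and 5 without D-ala replicate 2. Isg15, a ubiquitin-like modifier, fell from 7.17 ± 1.21 to 4.50 ± 0.616 FPKM (-0.56, SE 0.12, adjusted p = 0.00522), and Ifit1, which senses viral RNA, from 2.04 ± 0.221 to 1.25 ± 0.264 (-0.44, SE 0.09, adjusted p = 0.00600). Complement genes fell in 5 of 14 and rose in 0, with a median of -0.26, and 2 or 3 fell without vehicle replicate 1 or 5 or without D-ala replicate 1 or 2. Serping1, the inhibitor of the first component, fell from 24.3 ± 3.86 to 13.2 ± 2.41 FPKM (-0.84, SE 0.16, adjusted p = 0.00399). Vehicle replicate 2 was the lowest control for Serping1 and still stood above every D-ala library. MHC genes fell in 3 of 16, and the number was 0 to 5 with 1 library left out (0 without vehicle replicate 1, 4 or 5 or without D-ala replicate 1 or 4) and 8 with quantile normalization or voom, so that no member passed under every alternative.

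Markers of vessels, macrophages and stroma held falls as well. The summed level of 12 endothelial markers was 162 to 258 FPKM under vehicle and 135 to 184 under D-ala, 3 of the 12 fell, and the median was -0.38. Tek, the angiopoietin receptor, fell from 5.63 ± 1.13 to 3.12 ± 0.691 FPKM (-0.68, SE 0.17, adjusted p = 0.0148); Pecam1 fell by 0.53 on the log2 scale (SE 0.15, adjusted p = 0.0347) but did not pass without vehicle replicate 1, 3, 4 or 5 or without D-ala replicate 1, 2 or 3, or with no filter on low values. With 1 library left out the number of endothelial markers lower was 1 to 7, with 7 without vehicle replicate 2. Of the 7 tested macrophage and dendritic cell markers 3 fell (median -0.55), 1 to 4 with 1 library left out, and the 12 in the table summed to 152 to 266 FPKM under vehicle and 110 to 173 under D-ala. Of 8 fibroblast and pericyte markers 2 fell, with sums of 30.1 to 48.9 and 24.5 to 33.6 FPKM, and Pdgfra fell by 0.63 on the log2 scale (SE 0.14, adjusted p = 0.00748). The sums overlapped between the groups in all 3 lists. The part of these cells in the falls of interferon, complement and MHC genes was not tested, and in whole tissue fewer cells of a type and less RNA per cell cannot be told apart. Changes of the 10 podocyte markers ran from -1.01 to 2.43 on the log2 scale, with a median of 0.17. Of these, 1 was higher, under every alternative, and 1 lower. The lower one, Tcf21, passed under 13 of the alternatives (-1.01, SE 0.28, adjusted p = 0.0319). Adipocyte markers varied within both groups, at 325 to 732 and 329 to 849 FPKM, and 0 of 10 passed although their median was 0.89. Adipoq was 22.1 FPKM in D-ala replicate 2 and 0 in D-ala replicate 4.

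Heat shock genes were the stress list that leaned lower, with 4 of 20 down (20%) and 2 up (10%), against 4.92% and 6.53% of all genes tested. With 1 library left out 2 to 5 were down (2 without vehicle replicate 3 or 4 or without D-ala replicate 1, 2 or 3). Dnajb1, a cochaperone of Hsp70, was 20.8, 29.6, 35.7, 26.3 and 22.5 FPKM under vehicle and 15.3, 17.2, 17.96, 16.1 and 16.2 under D-ala (-0.65, SE 0.13, adjusted p = 0.00482). Its relative Dnajb4 rose from 21.9 ± 7.54 to 41.5 ± 7.26 FPKM (0.93, SE 0.20, adjusted p = 0.00832), with D-ala replicate 3 level with vehicle replicate 3. The inducible Hsp70 gene Hspa1b had every D-ala library, at 5.45, 4.82, 5.68, 7.12 and 4.58 FPKM, below every vehicle library, at 7.23, 13.4, 13.6, 13.6 and 9.93, but did not pass (-0.92, SE 0.38, adjusted p = 0.141). Its L-ala libraries, which enter the estimate of the spread, had a mean of 16.7 FPKM and an SD of 14.004, and in the fit to the 10 vehicle and D-ala libraries alone it passed (SE 0.16, adjusted p = 0.00515).

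Zinc finger genes with a Zfp number, 235 tested, split into 18 higher and 23 lower with a median of -0.04, which is 7.66% and 9.79% of them, against 6.53% and 4.92% of all genes tested. The number lower was 38 with voom and 11 with a filter of 5 FPKM. The rises were the larger: Zfp612 was 2.49, 2.60, 3.26, 2.51 and 2.61 FPKM under vehicle and 6.23, 6.95, 6.195, 6.31 and 7.18 under D-ala (1.04, SE 0.11, adjusted p = 2.15e-05), and Zfp707 rose from 10.02 ± 1.09 to 18.5 ± 2.51 (0.82, SE 0.09, adjusted p = 3.53e-05). Zfp120 fell from 3.71 ± 0.148 to 2.33 ± 0.302 FPKM (-0.51, SE 0.07, adjusted p = 3.63e-04). All 3 separated the groups without overlap.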

How the data were processed

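Kidney RNA was measured by RNA sequencing, 5 libraries per group. Per the labels' protocols, RNA was taken up in TRIzol and libraries came from a stranded TruSeq mRNA kit. The submitters' processing notes name mouse build mm10, SAMtools 0.1.19, Bowtie2 2.2.3 and TopHat2 2.0.13. Which program gave the values per gene, and whether by strand, is not given in the sources used here, and overlapping genes and paralogs may share reads. The deposited table holds 23284 genes. Its FPKM values, so called per the file headers, were tested as log2(FPKM + 1), which understates the change of low genes. Its whole numbers are counts that the authors rescaled per library, deposited on a common scale and treated here as a score, so no count model was fitted; the factor read from gaps in the low numbers gave the depth.

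A gene entered the test if 5 or more libraries reached 1 FPKM, which 11781 did and 11503 did not. limma 3.58.1 under R 4.3.3 fitted 3 group means over the 15 libraries (mean-variance trend, robust), p-values for D-ala against vehicle were adjusted by Benjamini-Hochberg over all genes tested, and a call needed an adjusted p under 0.05. The fit was tested on simulated data. Replicate numbers follow sample order and pair nothing, and the labels give no batch. Alternatives were 10 libraries only, a pseudocount of 0.1, no filter, a filter of 5 FPKM, median-of-ratios and quantile scaling, limma's voom on the scaled counts, removal of each library's GC trend, no trend and no robust step, each of the 10 libraries left out and, chosen after seeing the data, L-ala replicate 5 left out.

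Gene lists, groups and the rule for named genes were chosen with earlier results of these data known. Named genes are the 15 largest rises and falls among called genes without overlap that average 1 FPKM or more in a group, up to 5 called and up to 3 of the highest uncalled members of each list, and Dao, Per1, Per2, Arntl, Nr1d1, Dbp, Pck1, G6pc and Fbp1; others are said to be chosen after their values were seen. Some genes that the rule names are not reported here. GENCODE M21 (GRCm38) gave the coordinates. Gene symbols were matched to RefSeq, where 20723 were found as written and 2274 as older symbols, and 287 were missing. Promoters are RefSeq windows of GRCm38.p6.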

Additional observations from a re-analysis of the deposited data

Results flagged for a closer look

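Of 284 groups of 5 libraries, 2 for each gene named in the text and tested, 28 held a highest or lowest library far from the other 4; chance flags about 1 in 20 groups. In the vehicle group, replicate 3 was high for Plk3 (47.5 FPKM), Nr4a1 (30.2), Mat2a (175) and Zfp612 (3.26). Vehicle replicate 4 was high for Umod (1628 FPKM), Slc12a1 (224), Slc38a2 (26.1) and Adipoq (16.1) and low for Slc22a6 (247). Vehicle replicate 5 was high for Mt1 (506 FPKM), vehicle replicate 1 low for Dbp (126) and vehicle replicate 2 low for Lepr (1.28). In the D-ala group, replicate 2 was high for Mt1 (948 FPKM), Mt2 (455), Hmox1 (41.1), Slc16a1 (12.9), Adm2 (12.7) and Chac1 (4.80). D-ala replicate 3 was high for Aqp2 (247 FPKM) and Mier1 (7.42) and low for Cyp24a1 (2.57). D-ala replicate 4 was high for Efna1 (150 FPKM) and Lypd2 (7.95) and low for Nfil3 (4.69), and its Cck value of 10.4 was far above the other 4. D-ala replicate 5 was high for Srsf5 (75.8 FPKM) and Slc4a9 (41.4) and low for Fkbp5 (62.3). Except for Cck, Aqp2, Mt1, Adipoq, Dbp, Hmox1, Chac1, Cyp24a1, Fkbp5, Slc12a1 and Umod, these genes had no overlap between the groups even with the far library in place.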

How the results depend on the processing

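The number of genes called was 1349 and stayed within 1.5 times of that under every alternative except without vehicle replicate 4 (812, of which 800 were among the 1349). With 1 vehicle or D-ala library left out it ran from 812 to 1267, the genes higher from 502 to 718 and the genes lower from 310 to 549. The lower calls moved beyond 1.5 times of 580 without vehicle replicate 4 (310), without D-ala replicate 1 (364) and with voom (1216, with 1096 of the 1349 calls shared). Quantile normalization called 1576 genes, 740 higher and 836 lower, and shared 1237. Leaving out L-ala replicate 5, an alternative chosen after seeing the data, called 1592 (888 higher, 704 lower) and shared 1346. Of the values of the 142 tested genes named in the text under the alternatives, 2752 kept direction and side of the threshold, 58 lost the call, 14 gained one and 0 reversed. No paired analysis was possible because the labels give the samples no shared replicate numbers. Depth limits genes of few FPKM most, 11503 genes were not tested, and FPKM carry no counting interval. GC content shifted between the groups, 5 libraries per group set the precision, and lists share members.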

Other observations

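Within the vehicle group, replicates 3 and 5 had first principal component scores of -7.56 and -7.22, and the other 3 lay between -26.3 and -19.7; the D-ala libraries lay between -1.93 and 10.7. Of the 122 genes that fell by 0.5 or more on the log2 scale, D-ala replicate 2 held the lowest value for 60 (49.2%), against 22.1% of all genes tested, and replicate 4 for 9 (7.38%).

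Cck, which codes for cholecystokinin, was picked after its values were seen and falls outside the largest falls named above because of 1 library. It was 11.9, 9.19, 16.1, 12.5 and 15.4 FPKM under vehicle and 1.23, 0.386, 2.29, 10.4 and 0.195 under D-ala (limma log2 fold change -2.36, SE 0.49, adjusted p = 0.00861). D-ala replicate 4 was within the vehicle range and the other 4 were far under it.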
